A study of Mus musculus with 24 samples.

Results

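Cholesterol synthesis, uptake and efflux genes were described in 24 mouse tumours, each measured on 1 Clariom S array, a whole-transcript microarray. The 31 genes were chosen by symbol from knowledge of the pathway, with earlier results of these data known. They were 19 synthesis enzymes, 4 genes of SREBP regulation, 3 sterol transport genes and 5 genes of efflux and storage. Of these 27 were measured, among 19505 genes in all. Acat2, Tm7sf2, Nr1h2 and Soat1 were not analysed here. The series concerns pancreatic ductal adenocarcinoma and has 4 groups of 6 tumours: BMS754807, hydroxychloroquine, BMS754807+hydroxychloroquine (the combination) and a control that received vector. BMS754807 inhibits the receptor kinases for insulin and for IGF1, and hydroxychloroquine is a weak base that accumulates in lysosomes and blocks the end of autophagy. The labels gave no dose, treatment time, tumour site, mouse strain or tumour model, and were silent on whether each tumour was taken from its own mouse. Errors and p-values therefore describe the spread between these 24 samples, which may be technical.

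Mammalian cells build cholesterol from acetyl-CoA through the mevalonate pathway and a long series of sterol steps, most of them in the endoplasmic reticulum. When sterols are scarce in that membrane, SCAP escorts the transcription factor SREBP2 to the Golgi, where it is cut and released to switch on the enzyme genes. When sterols are plentiful, the INSIG proteins hold SCAP back, and oxysterols activate LXR receptors, which switch on export genes such as Abca1 and Abcg1. Hydroxychloroquine acts on the compartment from which NPC1 and NPC2 release lipoprotein cholesterol, and insulin signalling is a known activator of SREBP processing.

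Because SREBP2 acts with the CCAAT-binding factor NF-Y at these promoters, promoter windows were searched for CACNCCAC, a form of the sterol regulatory element, for CCAAT, and for the ideal LXR element, a direct repeat of AGGTCA with 4 bases between. Windows ran from 250 bases before to 50 bases after a transcript start, both strands were read, and a gene with several starts had several windows. The sequences are those of RefSeq, assembly GRCm38.p6, and 21 of the 27 measured genes matched an entry. CACNCCAC was found in Insig1 and Hmgcs1, 2 of 21 genes (9.52%), against 7.12% of all genes and 6.24% of all promoters in the table. CCAAT was found in 14 of 14 synthesis enzymes with a window and in 19 of the 21 genes, against 41.1% of all genes and 37.4% of all promoters. The LXR repeat was found in 0 of 21 genes, against 0.0148% of all genes and 0.0152% of all promoters. So rare a repeat would hardly be found in 21 genes, and LXR elements with other letters were not searched for. A match is a description of the letters and not of binding. Printed are both windows with CACNCCAC, of the feedback gene Insig1 (chr5:28071162-28071461, plus strand) and the pathway entry enzyme Hmgcs1 (chr13:119690101-119690400, plus strand), and that of the exporter Abca1 (chr4:53159846-53160145, minus strand) for contrast. Capitals mark the matches, which read ATTGG where a CCAAT lies on the other strand. The Insig1 match to CACNCCAC lies on the strand opposite to the gene, the Hmgcs1 match on the gene's own strand, and no match overlaps another. Abca1 has no exact match to these motifs in this window, which does not show that the window lacks an LXR element.
Insig1: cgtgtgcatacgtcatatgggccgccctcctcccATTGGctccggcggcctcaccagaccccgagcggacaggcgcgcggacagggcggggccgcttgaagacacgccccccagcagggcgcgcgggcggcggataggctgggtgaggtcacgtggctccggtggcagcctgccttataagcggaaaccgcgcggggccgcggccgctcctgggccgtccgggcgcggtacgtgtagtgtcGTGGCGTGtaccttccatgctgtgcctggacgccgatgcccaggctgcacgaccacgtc
Hmgcs1: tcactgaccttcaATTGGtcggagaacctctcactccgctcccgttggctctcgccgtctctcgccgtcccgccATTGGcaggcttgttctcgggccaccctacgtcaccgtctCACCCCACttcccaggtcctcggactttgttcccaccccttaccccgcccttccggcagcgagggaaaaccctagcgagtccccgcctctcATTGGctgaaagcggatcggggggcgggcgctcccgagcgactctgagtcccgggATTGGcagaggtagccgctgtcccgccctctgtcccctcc
Abca1: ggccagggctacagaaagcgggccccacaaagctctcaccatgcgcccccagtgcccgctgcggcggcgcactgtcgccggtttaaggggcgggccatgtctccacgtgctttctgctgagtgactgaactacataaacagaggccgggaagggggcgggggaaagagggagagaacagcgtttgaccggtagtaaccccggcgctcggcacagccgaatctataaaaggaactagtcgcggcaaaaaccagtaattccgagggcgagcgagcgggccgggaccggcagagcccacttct

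All values are the authors' deposited log2 signals, and differences between groups are on the log2 scale. Array medians lay between 6.79 and 7.03 log2, and correlations between arrays across genes, which are not independent replicates, lay between 0.975 and 0.994. The SD over all genes was 3.92 to 3.99 in BMS754807 arrays, 3.90 to 3.98 in hydroxychloroquine arrays, 3.97 to 3.99 in combination arrays and 3.90 to 3.98 in control arrays. Of 12 epithelial markers, Krt7, Krt8, Krt18, Krt19, Cdh1 and Sox9 stood at 14.65 log2 or higher in every tumour and Epcam at 10.68 or higher, while Cldn3, Cldn4, Cldn7, St14 and Esrp1 were lower and more variable, Esrp1 from 2.5 to 8.69. Of 7 acinar markers Cela1 ranged from 6.65 to 8.63 log2, and the other 6 reached 5.50 at most. Array weights were lowest in BMS754807 tumour 6 (0.419), in hydroxychloroquine tumour 4 (0.593) and in control tumour 5 (0.518). The enzyme and efflux means are also given without these 3 tumours, a choice made after the data were seen.

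No gene of the set passed the threshold, an adjusted p under 0.05 in limma with Benjamini-Hochberg adjustment over 19505 genes, in any of 8 comparisons. The background was equally empty, with 0% of all genes called in each. The tests were each treated group against control, the combination against each single agent, the main effect of each agent (the mean of both groups with it minus the mean of both groups without it), and the interaction (combination minus hydroxychloroquine, less BMS754807 minus control). All 3 treated groups were set against one set of 6 control tumours, so these comparisons are not independent. At an unadjusted p under 0.05 stood 0 of 27 genes for BMS754807 against control (5.88% of all genes), 0 for hydroxychloroquine against control (4.81%), 1 for the combination against control (5.06%), 2 for the combination against BMS754807 (8.61%) and 1 for the combination against hydroxychloroquine (5.39%). The main effects gave 1 for BMS754807 (5.72% of all genes) and 1 for hydroxychloroquine (8.09%), and the interaction 0 (5.05%). None of the 27 had a treated group that did not overlap control, against 0.174% of all genes with BMS754807, 0.154% with hydroxychloroquine and 0.308% with the combination. All differences below are accordingly values that did not pass.

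**Figure D1:**
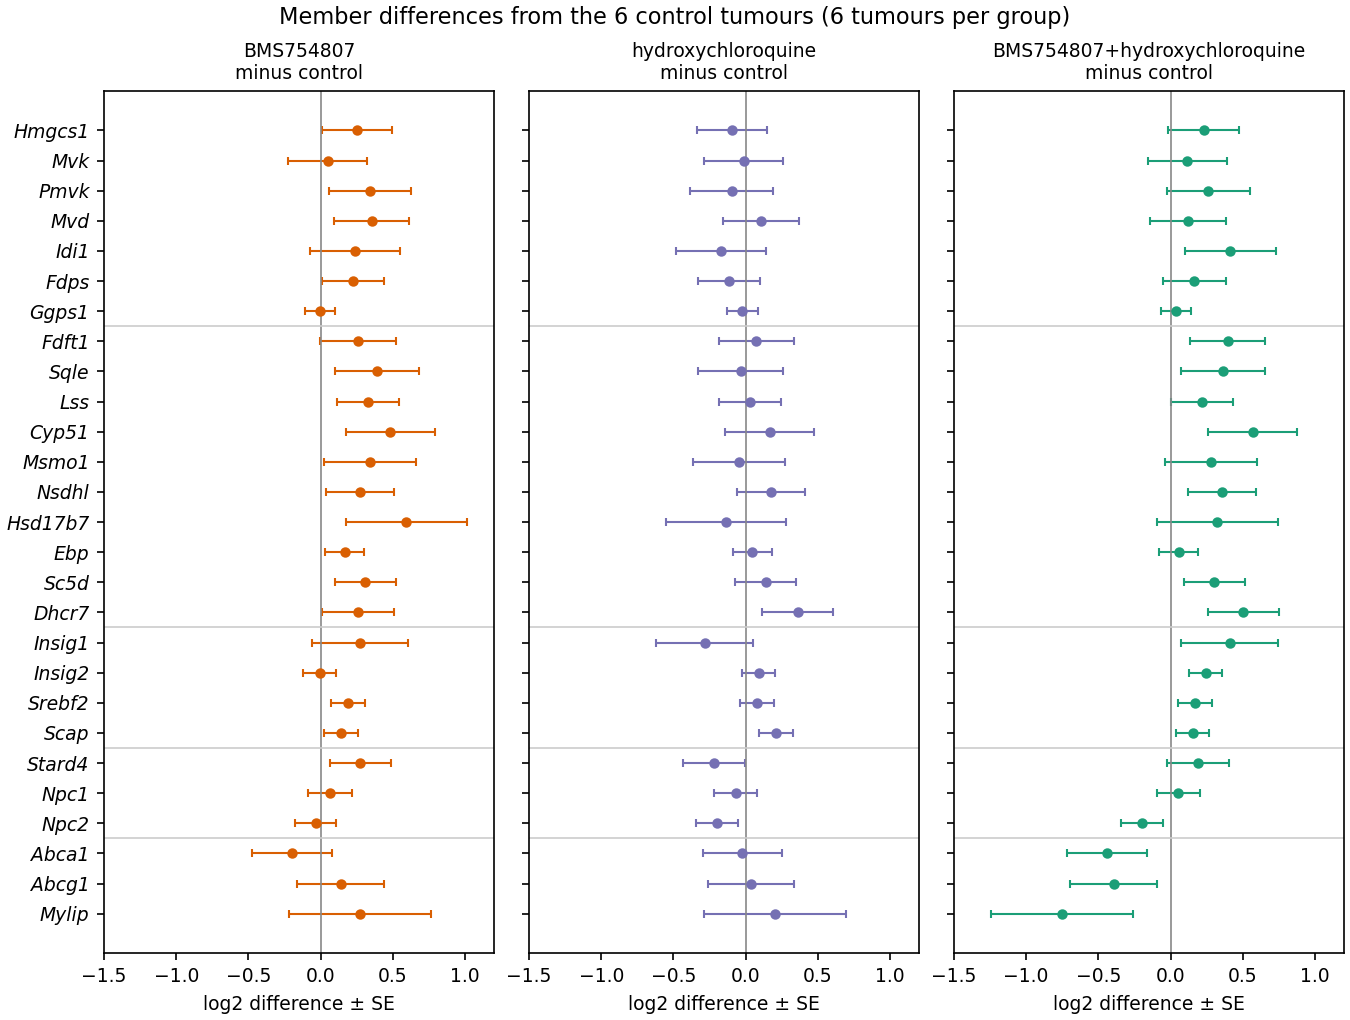
Log2 difference from the 6 control tumours (x axis, points with SE) of the 27 measured genes (y axis) for BMS754807, hydroxychloroquine and the combination, with grey lines between roles from mevalonate enzymes at the top to efflux genes at the bottom. Of the 17 enzymes 16, 8 and 17 lie right of 0 in the panels from left to right, and Abca1, Abcg1 and Mylip lie left of 0 in the combination panel.

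On average the synthesis enzymes stood higher with BMS754807, alone and in the combination, and with hydroxychloroquine alone they stood near control. The BMS754807 tumours were split, and in tumours 2, 5 and 6 most enzymes lay below their own mean of 24 tumours. With the SD of each array as a covariate, the combination mean against control was -0.0081. For BMS754807 against control 16 of 17 enzymes lay higher (50.2% of all genes did). The median difference was 0.27 and the mean 0.29 ± 0.23 log2 (SE between tumours, pooled over the 4 groups, n = 6 per group). With hydroxychloroquine 8 of 17 lay higher (49.8% of all genes), and the median (-0.013) and mean (0.022 ± 0.23) differed in sign. In the combination 17 of 17 lay higher (51.5% of all genes), with a median of 0.28 and a mean of 0.28 ± 0.23. The medians of all genes lay within 0.01 log2 of 0 in these comparisons. The BMS754807 and combination means were a little larger than this pooled SE, and none was tested as a list. The enzyme mean per tumour had an SD of 0.53 log2 with BMS754807, 0.52 with hydroxychloroquine, 0.22 in the combination and 0.19 in control. The pooled SE is therefore no measure of the spread of combination and control tumours alone. The enzymes are correlated with each other, so their number is no measure of support.

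Cell cycle and epithelial markers lay higher beside the enzymes. Of 11 cell cycle genes, 11 lay higher with BMS754807 than in control (0.36 ± 0.16 log2). Of these, 5 had a limma unadjusted p under 0.05, against 5.88% of all genes in either direction. In the combination 9 cell cycle genes lay higher (0.18 ± 0.16), and with hydroxychloroquine 4 did (0.0020 ± 0.16). Their score ranged from -0.039 to 0.49 with BMS754807, from -0.53 to 0.42 with hydroxychloroquine, from -0.21 to 0.35 in the combination and from -0.70 to 0.19 in control. Of 12 epithelial markers, 12 lay higher with BMS754807 (0.29 ± 0.35), 7 with hydroxychloroquine (0.22 ± 0.35) and 10 in the combination (0.63 ± 0.35), each against control. Over all genes 50.2%, 49.8% and 51.5% lay higher in that order. In the BMS754807 main effect 11 of 11 cell cycle genes (0.27 ± 0.11) and 12 of 12 epithelial markers (0.35 ± 0.25) lay higher, against 50.6% of all genes. Of the cell cycle genes 6 had a limma unadjusted p under 0.05, against 5.72% of all genes in either direction. The part of both lists in the enzyme result was not tested.

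Seen as a main effect over 12 tumours with BMS754807 and 12 without, 17 of 17 enzymes lay higher (50.6% of all genes), by a mean of 0.27 ± 0.16 log2. The largest single difference was that of Hsd17b7, the sterone reductase of the demethylation complex (0.53 ± 0.30, SE), followed by Cyp51, which removes the methyl group of lanosterol (0.44 ± 0.22). The smallest was that of Ggps1, which makes geranylgeranyl diphosphate and so leads away from sterols (0.029 ± 0.074). The main effect of hydroxychloroquine was a mean of 0.0073 ± 0.16 and a median of -0.030, opposite in sign, with 8 of 17 higher (50.3% of all genes), and the interaction a mean of -0.030 ± 0.32, with 8 of 17 higher (50.8% of all genes). Set against BMS754807 alone, the combination gave -0.0078 ± 0.23 and 7 of 17 higher (49.3% of all genes). Against hydroxychloroquine alone it gave 0.26 ± 0.23 and 17 of 17 higher (51.8% of all genes).

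These means depended on single tumours and on the spread of the arrays. Without BMS754807 tumour 1 the BMS754807 mean against control was 0.17, with 16 of 17 higher, and without hydroxychloroquine tumour 6 the combination mean against hydroxychloroquine was 0.12, with 14 of 17 higher. Without hydroxychloroquine tumour 1 the combination mean against hydroxychloroquine was 0.41, and the near-zero mean of hydroxychloroquine against control ran from -0.13 without its tumour 1 to 0.16 without its tumour 6. The combination mean against BMS754807 ran from -0.14 without BMS754807 tumour 2 to 0.11 without BMS754807 tumour 1. With the SD of each array as a covariate the combination mean against control was -0.0081 with 6 of 17 higher, the combination mean against hydroxychloroquine -0.088 with 2 of 17 higher, and the BMS754807 main effect 0.078 with 14 of 17 higher. Under the same covariate the combination mean against BMS754807 was -0.25 with 1 of 17 higher, and the interaction -0.33 with 0 of 17 higher. BMS754807 against control was 0.24 with 16 of 17 higher, hydroxychloroquine against control 0.080 with 11 of 17 higher, and the hydroxychloroquine main effect -0.086 with 3 of 17 higher. No combination array had an SD under 3.97, so array spread and treatment cannot be told apart there. Without the 3 tumours of lowest array weight, 17 of 17 enzymes lay higher for BMS754807 against control (0.32), the combination against control (0.24), the combination against hydroxychloroquine (0.25) and the BMS754807 main effect (0.28). The other means were then -0.012 for hydroxychloroquine against control (9 of 17 higher), -0.079 for the combination against BMS754807 (5 of 17), -0.046 for the hydroxychloroquine main effect (5 of 17) and -0.067 for the interaction (3 of 17).

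The mevalonate enzymes come first in the pathway. Hmgcs1, the cytosolic synthase that joins acetyl units to HMG-CoA, ranged from 14.25 to 15.61 log2 with BMS754807 (median 14.73), from 13.68 to 15.30 with hydroxychloroquine (14.53), from 14.40 to 15.09 in the combination (14.915) and from 14.40 to 14.88 in control (14.56). BMS754807 tumours 1 and 3 and hydroxychloroquine tumour 1 lay highest, hydroxychloroquine tumour 6 lowest, and all groups overlapped. The difference with BMS754807 was 0.25 ± 0.24 log2 (SE; limma adjusted p = 0.97). Idi1, the isomerase of isopentenyl diphosphate, ranged from 11.40 to 13.28 log2 with BMS754807 (median 12.18), from 11.00 to 12.86 with hydroxychloroquine (11.60), from 12.19 to 12.65 in the combination (12.295) and from 11.57 to 12.50 in control (11.945). Its combination tumours formed a narrow band above the control mean in 6 of 6 tumours, inside the range of both single agents. That count of 6 of 6 held for 4 of 17 enzymes and 6 of 27 genes, and its share over all genes was not computed. The combination minus control difference was 0.41 ± 0.31 log2 (adjusted p = 0.946).

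The other mevalonate enzymes were the kinases Mvk and Pmvk, the decarboxylase Mvd, the farnesyl diphosphate synthase Fdps, and Ggps1. Against control they differed by 0.05, 0.34, 0.35, 0.22 and -0.0033 log2 with BMS754807 and by 0.12, 0.26, 0.12, 0.17 and 0.04 in the combination, in that order. As a group the 7 mevalonate enzymes gave a mean of 0.21 ± 0.21 with BMS754807, -0.057 ± 0.21 with hydroxychloroquine and 0.19 ± 0.21 in the combination.

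The 10 sterol-forming enzymes gave means of 0.34 ± 0.25 log2 with BMS754807, 0.078 ± 0.25 with hydroxychloroquine and 0.34 ± 0.25 in the combination, each against control. Sqle, the squalene epoxidase and a controlled step of the pathway, ranged from 11.35 to 12.78 log2 with BMS754807 (median 12.06), from 10.74 to 12.96 with hydroxychloroquine (11.60), from 11.73 to 12.35 in the combination (11.98) and from 11.48 to 11.86 in control (11.68). The control values were close together, while 3 BMS754807 tumours (1, 3 and 4) lay above every control tumour and the other 3 below the control median. All groups overlapped, and the differences were 0.39 ± 0.29 log2 with BMS754807 (adjusted p = 0.948) and 0.36 ± 0.29 in the combination (0.952).

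Cyp51 ranged from 13.02 to 14.89 log2 with BMS754807 (median 13.77), from 12.76 to 14.39 with hydroxychloroquine (13.49), from 13.60 to 14.35 in the combination (14.015) and from 12.84 to 13.76 in control (13.43). Each of the 6 combination tumours lay above the control mean, and the lowest of them still overlapped control. The combination difference was 0.57 ± 0.31 log2, 1.48-fold, with a 95% interval of -0.07 to 1.21 and an adjusted p of 0.944. Dhcr7, which carries out the last reduction to cholesterol, ranged from 9.19 to 10.10 log2 with BMS754807 (median 9.495), from 9.07 to 10.13 with hydroxychloroquine (9.66), from 9.21 to 10.10 in the combination (9.905) and from 8.36 to 9.83 in control (9.55). Control tumours 2 and 5 were its lowest of all 24, and the other control tumours lay among the treated ones. The combination difference was 0.51 ± 0.25 log2 (adjusted p = 0.944), and Dhcr7 had the largest hydroxychloroquine difference of the 17 enzymes (0.36 ± 0.25; 0.979).

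The rest of the sterol enzymes are the squalene synthase Fdft1, the cyclase Lss, which makes lanosterol, Msmo1 and Nsdhl of C4 demethylation, Hsd17b7, the sterol isomerase Ebp and the desaturase Sc5d. With BMS754807 they differed from control by 0.26, 0.33, 0.34, 0.27, 0.59, 0.17 and 0.31 log2 in that order, and in the combination by 0.40, 0.21, 0.28, 0.36, 0.33, 0.06 and 0.30. Hsd17b7 was the widest of them, from 9.06 to 11.45 log2 with BMS754807 (median 10.275) and from 9.03 to 10.26 in control (9.67). Its BMS754807 tumours 1, 3 and 4 lay at 11.06 or higher and tumours 2, 5 and 6 at 9.49 or lower.

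**Figure D2:**
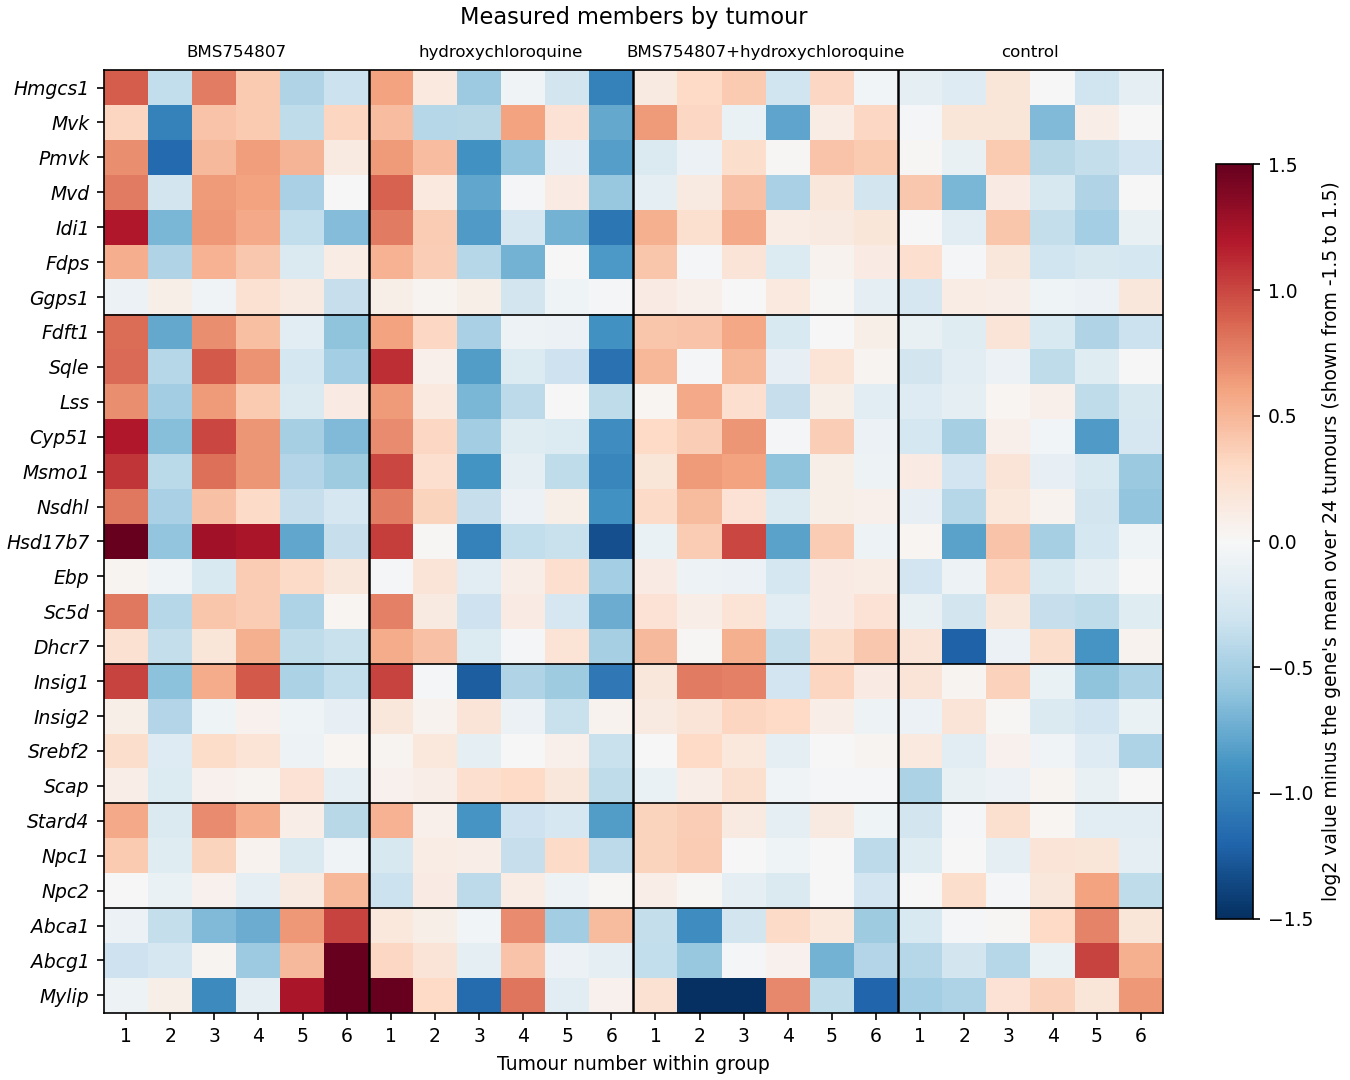
Log2 value of each measured gene (rows, by role) in each tumour (columns, by group and tumour number), centred on that gene's average of 24 tumours, red above and blue below that mean, with colours limited to -1.5 to 1.5. BMS754807 tumours 1, 3 and 4 and hydroxychloroquine tumour 1 are red over most enzymes, and hydroxychloroquine tumours 3 and 6 blue.

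The enzymes varied more between tumours of one single-agent group than between groups. For an enzyme score, each gene was centred on its mean of all 24 tumours and the 17 enzymes were averaged within a tumour. The score had an SD of 0.53 log2 with BMS754807, 0.52 with hydroxychloroquine, 0.22 in the combination and 0.19 in control (n = 6 each). In BMS754807 tumours 1, 3 and 4 it was 0.73, 0.56 and 0.52, and in tumours 2, 5 and 6 it was -0.50, -0.27 and -0.22. Among hydroxychloroquine tumours it ran from 0.65 in tumour 1, where 16 of 17 enzymes lay above their own mean, to -0.79 in tumour 6, where 0 of 17 did. Combination tumours lay between -0.27 and 0.37, and control tumours between -0.35 and 0.17.

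Gene by gene, the SD in BMS754807 tumours was above that in control for 16 of 17 enzymes, with a median ratio of 2.46, against 53.6% and 1.05 over all genes. For hydroxychloroquine it was 15 of 17 and 2.19, against 53.4% and 1.05, and for the combination 7 of 17 and 0.87, against 38.7% and 0.86. The ratio was highest for Sqle, at 5.02 with BMS754807 and 5.78 with hydroxychloroquine, where the control SD was 0.13 log2, and lowest for Dhcr7, at 0.63 and 0.65. Since the enzymes share their tumours, these counts are descriptions and were not tested. Group membership held a median of 12.9% of the sum of squares over the 27 genes, against 12.2% over all genes, with Mvk lowest at 1.24%, Dhcr7 highest of the enzymes at 16.9% and Insig2 highest of the 27 at 28.1%.

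**Figure D3:**
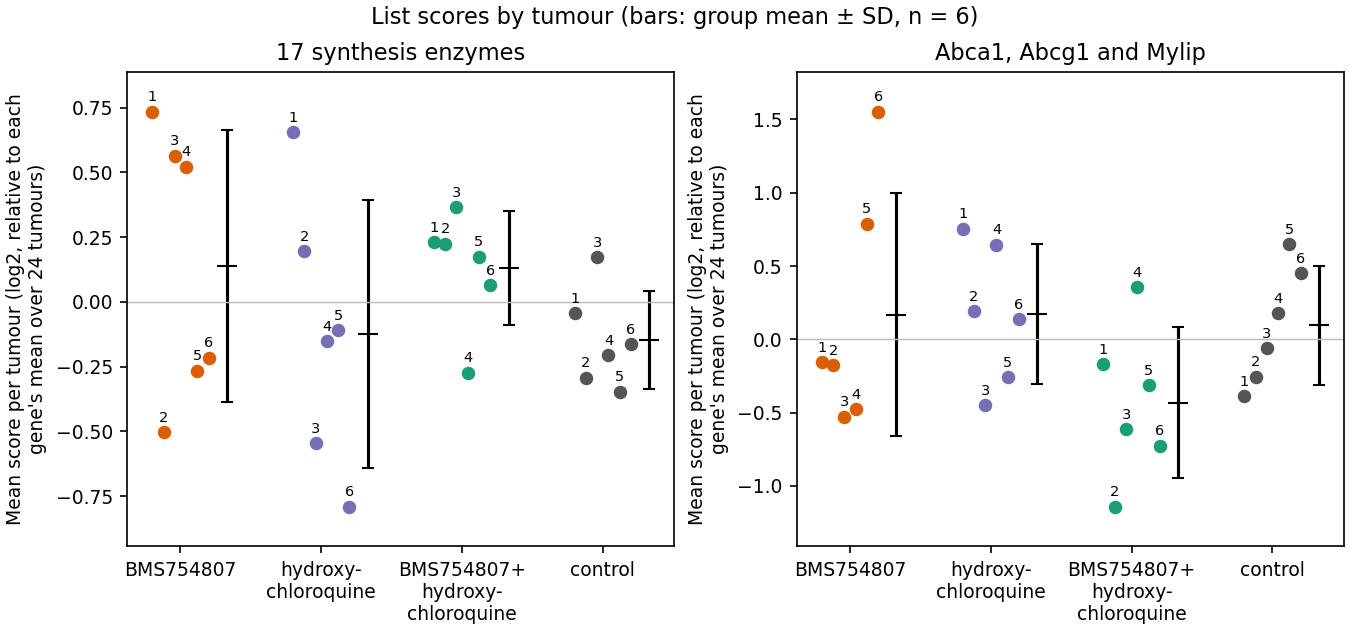
Score per tumour (y axis, log2 relative to each gene's mean over 24 tumours) of the 17 enzymes (left) and of Abca1, Abcg1 and Mylip (right), by group (x axis), with tumour numbers and bars for the mean ± SD of 6. Enzyme scores are wide with either single agent (SD 0.53 and 0.52) and narrow in the combination and control (0.22 and 0.19), and 5 of 6 combination efflux scores lie below 0.

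Across tumours most of the enzymes varied as one block. With group means removed, the median Pearson r over 136 enzyme pairs was 0.74 and 131 pairs were positive, against a median of 0.00038 over 1999000 pairs of genes drawn from all genes, all over the same 24 tumours. Hmgcs1 had an r of 0.96 with the mean of the other enzymes, Fdft1 0.95 and Hsd17b7 0.94. Mvk (0.59), Ebp (0.31) and Ggps1 (0.037) stood outside the block. Of the other roles, Insig1 (0.94) and Stard4 (0.90) followed the enzymes as closely as the enzymes did one another, Srebf2 less closely (0.74), and Scap (0.32) and Insig2 (0.33) loosely. Abca1 stood at -0.41, Abcg1 at -0.24 and Mylip at -0.075. These correlations share arrays and their scaling and are given as descriptions.

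**Figure D4:**
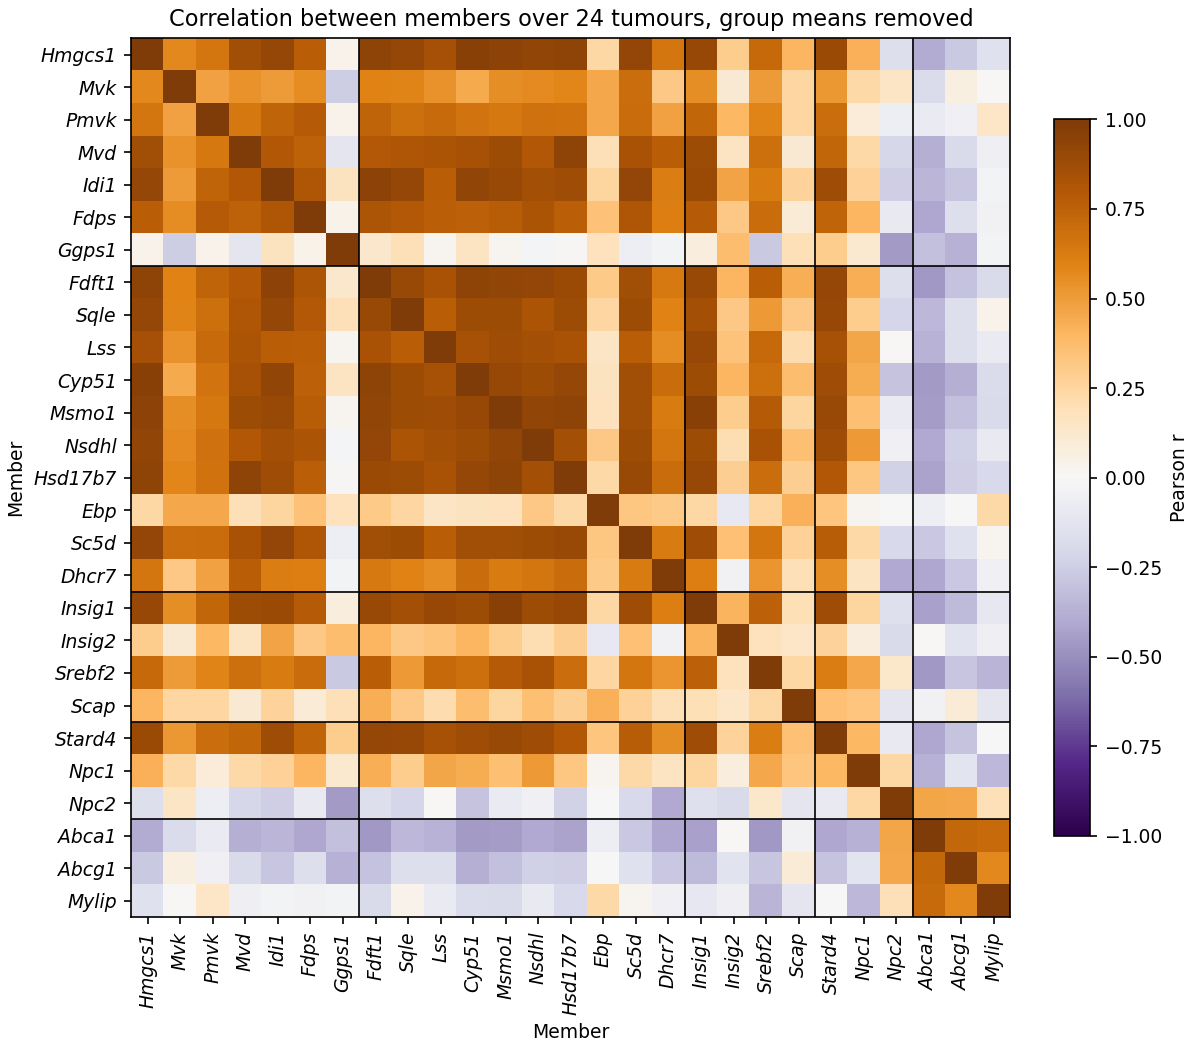
Pearson r over 24 tumours, with group means removed, between each pair of the 27 measured genes (both axes, ordered by role, black lines between roles), brown for positive and purple for negative. The enzyme block has a median r of 0.74, with Ggps1 and Ebp as pale lines, and Insig1 and Stard4 join it while Abca1, Abcg1 and Mylip form a block of their own (median 0.71).

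For 5 gene pairs the correlation was tested by permutation within groups, two-sided, over 24 tumours, with p adjusted over the 5. Insig1 with Sqle gave r = 0.85 (permutation p = 0.00029, adjusted 0.00122) and rho = 0.78 (p = 0.00105, adjusted 0.00417), with r = 0.76 without the 2 tumours farthest from the median of Insig1. Within groups its r was 0.94 with BMS754807, 0.98 with hydroxychloroquine, 0.39 in the combination and -0.21 in control, 6 tumours each. An r over 6 tumours is imprecise, and Sqle varied little in control (SD 0.13 log2). Srebf2 with Sqle gave r = 0.52 (permutation p = 0.0163, adjusted 0.0271) and rho = 0.48 (p = 0.0296, adjusted 0.0493), with r = 0.53 without the 2 farthest tumours. Its r within groups was 0.91 with BMS754807, 0.69 with hydroxychloroquine, 0.12 in the combination and -0.59 in control. Whether these correlations differ between groups was not tested.

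Among the SREBP regulators, Insig1, both a target of SREBP2 and its brake, ranged from 11.75 to 12.82 log2 in the combination (median 12.285), from 11.42 to 13.05 with BMS754807 (12.135), from 10.80 to 13.05 with hydroxychloroquine (11.55) and from 11.44 to 12.38 in control (12.01). Single-agent tumours reached both ends of its range, and each of the 6 combination tumours lay above the hydroxychloroquine mean. The combination minus hydroxychloroquine difference was 0.69 ± 0.33 log2, 1.62-fold (limma unadjusted p = 0.0492, adjusted 0.902), and the BMS754807 main effect 0.48 ± 0.24 (adjusted 0.868). Insig2, a second anchor of SCAP that SREBP does not drive, ranged from 8.78 to 9.18 log2 in the combination (median 9.015), from 8.41 to 8.94 with BMS754807 (8.79), from 8.52 to 9.05 with hydroxychloroquine (8.905) and from 8.56 to 9.05 in control (8.755). The 6 combination tumours lay above the means of BMS754807 and of control, though the ranges overlapped. Insig2 differed by 0.24 ± 0.11 log2 between the combination and control (unadjusted p = 0.0427, adjusted 0.944) and by 0.25 ± 0.11 between the combination and BMS754807 (unadjusted p = 0.0378, adjusted 0.551), and its hydroxychloroquine main effect was 0.17 ± 0.08 (unadjusted p = 0.0454, adjusted 0.607). Srebf2, which encodes SREBP2, averaged 15.50 ± 0.19 log2 with BMS754807, 15.39 ± 0.18 with hydroxychloroquine, 15.48 ± 0.15 in the combination and 15.31 ± 0.21 in control (SD, n = 6 each). Scap, the escort, averaged 11.60 ± 0.16, 11.67 ± 0.25, 11.61 ± 0.13 and 11.46 ± 0.18 log2 in the same order.

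In the transport group, Stard4, a cytosolic sterol carrier that SREBP2 drives, ranged from 11.45 to 12.58 log2 with BMS754807 (median 12.19), from 10.99 to 12.39 with hydroxychloroquine (11.59), from 11.73 to 12.24 in the combination (12.005) and from 11.59 to 12.11 in control (11.775). BMS754807 tumours were higher in the main, but both ends of the range came from single-agent groups. Its BMS754807 main effect was 0.34 ± 0.15 log2, higher in 10 of 12 tumours, with a 95% interval of 0.03 to 0.65 (unadjusted p = 0.0325, adjusted 0.833). Npc1, the lysosomal membrane protein that exports cholesterol, averaged 11.39 ± 0.26 log2 with BMS754807, 11.26 ± 0.28 with hydroxychloroquine, 11.38 ± 0.29 in the combination and 11.32 ± 0.17 in control. Npc2, which hands cholesterol to NPC1 inside the lysosome, averaged 11.14 ± 0.23, 10.98 ± 0.22, 10.98 ± 0.15 and 11.18 ± 0.33 log2 in the same order. Hydroxychloroquine main effects were -0.04 ± 0.11 for Npc1 and -0.18 ± 0.10 for Npc2 (adjusted p = 0.954 and 0.685). Npc1 and Npc2 were correlated at r = 0.24 (permutation p = 0.245, adjusted 0.245) and rho = 0.27 (p = 0.219, adjusted 0.273).

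The genes grouped as efflux, Abca1, Abcg1 and Mylip, took the opposite side in the combination. Mylip is not an exporter and had the largest difference from control, -0.75 log2, beside -0.44 for Abca1 and -0.40 for Abcg1. The mean of the 3 genes was -0.53 ± 0.33 log2 for the combination against control, -0.60 ± 0.33 against BMS754807 and -0.60 ± 0.33 against hydroxychloroquine. Each time 3 of 3 genes lay lower, where 51.5%, 49.3% and 51.8% of all genes lay higher. BMS754807 and hydroxychloroquine alone gave 0.071 ± 0.33 and 0.074 ± 0.33 against control, with 2 of 3 higher in each, and the interaction was -0.68 ± 0.47. The medians of the 3 genes were -0.44, -0.53 and -0.43 for the combination against control, BMS754807 and hydroxychloroquine in that order. Without BMS754807 tumour 6 the interaction was -0.40, the mean for BMS754807 against control was -0.21 and that for the combination against BMS754807 -0.32. The hydroxychloroquine mean against control ran from -0.043 with 0 of 3 higher, without its tumour 1, to 0.20 with 3 of 3 higher, without its tumour 3. With the SD of each array as a covariate the combination means were -0.25 against control (0 of 3 higher), -0.36 against BMS754807 (1 of 3) and -0.27 against hydroxychloroquine (0 of 3), and the interaction was -0.38 (1 of 3). Without the 3 tumours of lowest array weight they were -0.42, -0.32 and -0.51 in that order, the interaction was -0.41, and BMS754807 against control was -0.095 with 1 of 3 higher.

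Abca1, which loads cholesterol onto apolipoprotein A-I, ranged from 10.47 to 11.69 log2 in the combination (median 11.09), from 10.66 to 12.42 with BMS754807 (11.185), from 10.88 to 12.11 with hydroxychloroquine (11.53) and from 11.18 to 12.15 in control (11.51). Combination tumours 2 and 6 and BMS754807 tumours 3 and 4 were lowest, BMS754807 tumour 6 and control tumour 5 highest, and the groups overlapped. The combination minus control difference was -0.44 ± 0.28 log2 (adjusted p = 0.944), lower than the control mean in 5 of 6 tumours. Abcg1, which passes cholesterol to HDL particles, ranged from 6.31 to 7.09 log2 in the combination (median 6.615), from 6.48 to 8.76 with BMS754807 (6.915), from 6.87 to 7.45 with hydroxychloroquine (7.075) and from 6.60 to 8.04 in control (6.835). No combination tumour reached the mean of either single agent, and BMS754807 tumour 6 stood far above the rest of its group. The differences of the combination were -0.40 ± 0.30 log2 from control (adjusted p = 0.948) and -0.53 ± 0.30 from BMS754807 (0.646).

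Mylip, an LXR-driven ubiquitin ligase that removes lipoprotein receptors, ranged from 5.96 to 8.59 log2 in the combination (median 7.085), from 6.92 to 9.78 with BMS754807 (7.88), from 6.72 to 9.68 with hydroxychloroquine (8.055) and from 7.36 to 8.52 in control (8.075). Combination tumours 2, 3 and 6 lay below every control tumour, and combination tumour 4 above every one of them. The combination minus BMS754807 difference was -1.02 ± 0.49 log2, 0.491-fold (unadjusted p = 0.0483, adjusted 0.578), and the combination minus control difference -0.75 ± 0.49 (adjusted 0.944). Abca1 with Abcg1 was correlated at r = 0.72 (permutation p = 0.00049, adjusted 0.00122) and rho = 0.66 (p = 0.00167, adjusted 0.00417), with r = 0.60 without the 2 farthest tumours and 0.87, 0.51, 0.35 and 0.87 within BMS754807, hydroxychloroquine, combination and control tumours. Abca1 with Sqle gave r = -0.34 (permutation p = 0.182, adjusted 0.227) and rho = -0.24 (p = 0.331, adjusted 0.331).

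Macrophage and endothelial markers lay lower beside the efflux genes in the combination, and epithelial markers higher. Of 12 macrophage markers 10 were measured, and 9 of 10 lay lower in the combination than in control, with a mean difference of -0.60 ± 0.33 log2. Endothelial markers lay lower in 8 of 8 against control (-0.44 ± 0.39), BMS754807 (-0.54 ± 0.39) and hydroxychloroquine (-0.38 ± 0.39). Fibroblast markers lay lower in 7 of 10 against control (-0.032 ± 0.37) and in 10 of 10 against BMS754807 (-0.32 ± 0.37) and hydroxychloroquine (-0.51 ± 0.37). Adipocyte markers lay lower in 7 of 9 against control (-0.27 ± 0.92), 9 of 9 against BMS754807 (-1.33 ± 0.92) and 1 of 9 against hydroxychloroquine (0.45 ± 0.92). Over all genes 51.5%, 49.3% and 51.8% lay higher in the combination, in that order. The macrophage score ranged from -0.69 to 0.27 in the combination, from -0.72 to 1.47 with BMS754807, from -0.61 to 0.75 with hydroxychloroquine and from -0.28 to 1.27 in control, and the lowest marker by mean was Cx3cr1 at 6.23 log2. With group means removed, the efflux score had an r of 0.78 with the macrophage score, 0.78 with the endothelial, 0.65 with the fibroblast and -0.65 with the epithelial score over 24 tumours. The enzyme score gave -0.21, -0.35, -0.30 and 0.31 in that order, -0.34 with the muscle score and 0.14 with cell cycle genes. The efflux score also had an r of 0.52 with the adipocyte and 0.51 with the B cell marker score. The part of these markers in the result was not tested. In bulk tumour RNA, fewer cells of a type and less RNA per cell cannot be told apart.

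**Figure D5:**
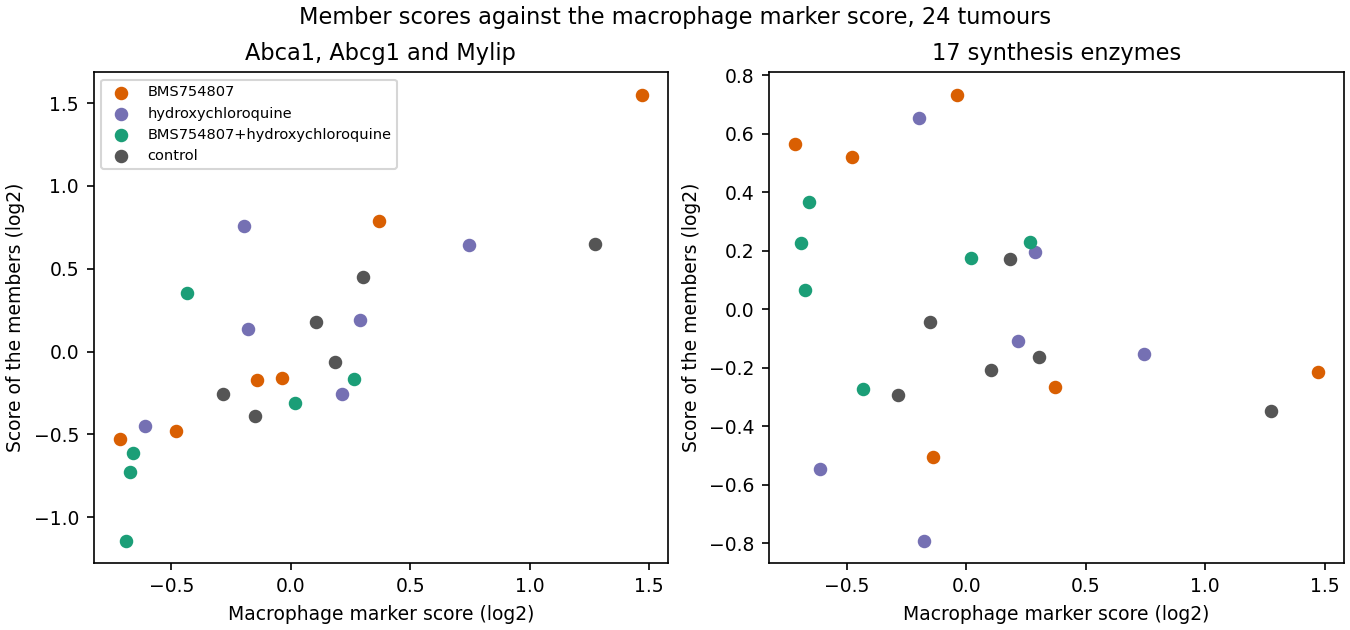
Score of Abca1, Abcg1 and Mylip (left, y axis) and of the 17 enzymes (right, y axis) against the score of 10 macrophage markers (x axis), all log2 relative to each gene's mean over 24 tumours, 1 point per tumour coloured by group. The efflux score climbs with the macrophage score (r = 0.78 with group means removed), and the enzyme score shows little relation to it (r = -0.21).

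Genes around the pathway were read from 5 lists, and none of their genes passed the threshold. Of 13 measured SREBP-driven fatty acid and lipid genes, 13 lay higher in the BMS754807 main effect (50.6% of all genes), by a mean of 0.19 ± 0.10 log2. The smallest p-values were those of Tmem97, a sterol-responsive membrane protein (0.34 ± 0.15, limma adjusted p = 0.843), the fatty acid synthase Fasn (0.28 ± 0.15; 0.886) and the desaturase Scd1 (0.65 ± 0.37; 0.887). The list score followed the enzyme score at r = 0.72, with Elovl6, an elongase, and Aacs, an acetoacetyl-CoA ligase, at 0.76 each. Of 9 measured adipocyte markers, 9 also lay higher in this main effect (0.75 ± 0.65 log2). The adipocyte score ran from -1.90 to 4.69 with BMS754807. The part of adipocytes in the fatty acid values was not tested. SREBP processing and degradation genes lay higher in 4 of 8, with a mean of 0.0045 ± 0.043 and a median of -0.0025, opposite in sign. On the higher side stood the ubiquitin ligase Rnf145 (0.08 ± 0.10), Ubxn8 (0.06 ± 0.09) and Erlin2 (0.04 ± 0.11) of endoplasmic reticulum degradation, and on the lower the ubiquitin ligase subunit Fbxw7 (-0.07 ± 0.10) and the ligase Rnf139 (-0.04 ± 0.10).

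Genes that use isoprenoids made upstream of squalene lay higher in 7 of 11, by 0.024 ± 0.041 log2. Coq2, of ubiquinone synthesis (0.23 ± 0.09; adjusted p = 0.799), the prenyl protein protease Rce1 (0.19 ± 0.08; 0.823) and the methyltransferase Icmt (0.19 ± 0.12; 0.887) led the higher ones, and the prenyltransferase subunits Rabggta (-0.16 ± 0.11; 0.9) and Pggt1b (-0.14 ± 0.10; 0.901) the lower. Uptake and lysosomal sterol genes lay higher in 6 of 14, and their mean of 0.031 ± 0.063 and median of -0.071 differed in sign. They included the scavenger receptors Scarb1 (0.19 ± 0.12; 0.887) and Cd36 (0.77 ± 0.58; 0.901), the lipoprotein receptor Lrp8 (0.35 ± 0.24; 0.901), and on the lower side the oxysterol-binding protein relative Osbpl1a (-0.23 ± 0.10; 0.823) and the lysosomal membrane protein Scarb2 (-0.14 ± 0.09; 0.887). Of all genes in the 5 lists Lrp8 followed the enzyme score most closely (r = 0.84), and Gramd1a, a carrier of plasma membrane cholesterol, ran most against it (r = -0.55).

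LXR and oxysterol genes lay higher in 4 of 11 in the BMS754807 main effect, by a mean of -0.062 ± 0.089 log2, and lower in 6 of 11 in the combination against control, with a mean of -0.19 ± 0.13 and a median of -0.022. The main effects were 0.16 ± 0.19 for Abcg4, a sterol exporter, 0.08 ± 0.22 for Nr1h3, which encodes LXR alpha, 0.02 ± 0.09 for Hsd3b7, of bile acid synthesis, -0.21 ± 0.13 for Nceh1, a cholesteryl ester hydrolase, and -0.14 ± 0.13 for Cyp27a1, which makes 27-hydroxycholesterol. This list's score followed the efflux score at r = 0.82 with group means removed.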

How the data were processed

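RNA of 24 tumours was measured on Clariom S arrays, 1 per tumour, and total RNA came from homogenized tissue, per the labels' protocols. The deposited values are the authors' log2 signals. Their base was inferred from the range of 1.45 to 19 in 22206 probe sets, with 0 missing. Transcriptome Analysis Console 4.0 is listed per the submitters' processing notes, and normalization and background correction were not given in the sources used here. The platform annotation gave 1 symbol for 19572 probe sets, several for 0 and none for 2634. The probe set of the highest mean was kept per gene, which dropped 67 and left 19505 genes, and all 19505 gene identifiers matched RefSeq's GRCm38.p6 table. Each of the 27 genes had 1 probe set and a mean of at least 6 log2.

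Group means were estimated over the 24 arrays together by limma 3.58.1 (lmFit, then eBayes) under R 4.3.3, with two-sided tests on 20 residual degrees of freedom. The limma fit was also run on simulated data with independent errors of equal spread in all groups. Genes here are correlated and their spread differed between groups, which that run does not cover. List means carry the SE of tumour scores pooled over groups. Permutations numbered 100000 and shuffled within groups, and a sixth pair planned, Soat1 with Sqle, could not be computed. Genes around the pathway are those of smallest p in the BMS754807 main effect, up to 3 higher and 2 lower per list. The genes and lists were chosen with earlier results of these data known. Arrays carry no count depth, and their number limits the precision. Alternatives were the mean of probe sets, a filter on dim genes, quantile normalization, median centring, array weights, trended and robust moderation, the compared groups alone, the replicate number as block, the array SD as covariate and the removal of single arrays.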

Additional observations from a re-analysis of the deposited data

Results flagged for a closer look

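Single tumours stood apart from the other 5 of their group in 5 of 116 cases, made of the 27 genes and the enzyme and efflux scores in each of 4 groups, by a gap of over 0.625 of the group's range. Chance gives about 1 in 20. Pmvk, the phosphomevalonate kinase, was 7.77 log2 in BMS754807 tumour 2 and 9.07 to 9.63 in the others. Scap was 11.2 log2 in hydroxychloroquine tumour 6, against 11.65 to 11.88, and 11.11 in control tumour 1, against 11.47 to 11.62. The desaturase Sc5d was 12.44 log2 in combination tumour 4, against 12.69 to 12.81, and the kinase Mvk 7.88 in control tumour 4, against 8.53 to 8.72.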

How the results depend on the processing

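Over 34 alternatives, 24 of which left out 1 tumour, 0 of 7263 single-gene differences of the set had an adjusted p under 0.05, and the smallest was 0.408 (Insig2, combination against BMS754807, dim genes filtered). A difference was counted as reversed where its sign turned and its size had exceeded 1 SE. Several alternatives could not change the size of a difference of the set: mean of probe sets, dim-gene filter, moderation, compared groups alone and replicate block. They could change only its error or p-value, so the unchanged differences under them are no sign of robustness. Removing a tumour likewise left comparisons without its group as they were. Signs turned within 1 SE in 52 of 216 differences with the array SD as covariate, and in 3 to 23 with 1 tumour left out. Only the array SD as covariate reversed any difference. Under it the combination minus control enzyme mean was -0.0081, Idi1 -0.021, Sqle -0.0071, Lss -0.0064 and Insig1 -0.0099. The combination minus hydroxychloroquine enzyme mean was -0.088, Pmvk -0.12, Fdps -0.088, Fdft1 -0.093, Sqle -0.049, Cyp51 -0.058, Msmo1 -0.10 and Hsd17b7 -0.18. The cause was not tested.

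Over all genes, the hydroxychloroquine main effect gave 4 calls with dim genes filtered (Cpq, Lgr5, Tgfb3 and Timp3), 5 with trended and robust moderation (these and Gaa) and 1 with the replicate number as block (Cpne8). That block also gave 1 call for hydroxychloroquine against control (Stk26). These genes were named after their values were seen, and none is of the set. Leaving out 1 tumour gave 0 to 1 calls for BMS754807 or hydroxychloroquine against control and for the combination against BMS754807, and 0 to 2 for the hydroxychloroquine main effect. Whether tumours of the same replicate number belong together was not tested. Deviations of 36 same-numbered pairs had a median correlation of -0.0075, 9 of them over 0.1. All pairs of number 3 were positive, from 0.087 to 0.30, while each other number had pairs of both signs.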
